A study of Mus musculus with 4 samples.

Results

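The Hox genes encode homeodomain transcription factors that give cells their position along the head-to-tail axis. Transcripts of this family were examined in the tissue that the labels name as mouse left hemi-diaphragm, the sheet of skeletal muscle that drives breathing. Members were all probe sets of the array whose platform annotation names exactly 1 gene with a symbol made of Hoxa, Hoxb, Hoxc or Hoxd and a number. This gave 33 Hox genes, of 39 in RefSeq and of 18194 genes with a probe set of their own on the array, read by 48 of its 45101 probe sets. Total RNA was hybridised to 4 one-colour arrays, 2 of the synaptic region, where the motor nerve meets the fibres, and 2 of the non-synaptic region. The labels give no strain, age, sex, genotype or treatment, and do not state whether different animals were used for each array. The deposited values are linear intensities that had already been brought to a common level, with a trimmed mean of 2500 on each array.

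In the vertebrate genome the Hox genes lie in 4 clusters, and genes of the same paralogue number in different clusters are descended from a common ancestor. Along each cluster the order of the genes follows the order of the body levels at which they are first expressed. Low numbers mark the hindbrain and neck and high numbers the lumbar, sacral and tail levels, the limbs and the genital tract. Diaphragm muscle precursors migrate from neck-level somites, and the phrenic motor neurons that innervate the diaphragm lie in the neck-level spinal cord, where Hoxa5 and Hoxc5 are known to be needed for their identity. Adult connective tissue and muscle are known to keep Hox expression that reflects their origin in the embryo.

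A probe set was counted as above the threshold on an array when its intensity exceeded 469, the 40th percentile of all values on the 4 arrays together. By this rule 20 of the 48 Hox probe sets, or 41.7%, lay above the threshold on all 4 arrays, against 51.2% of all probe sets that are not controls. These 20 represent 13 of the 33 genes: Hoxa2, Hoxa3, Hoxa4, Hoxa5, Hoxa9, Hoxb2, Hoxb3, Hoxb4, Hoxc4, Hoxc5, Hoxc6, Hoxd8 and Hoxd9. By paralogue group, the genes above on all arrays were 0 of 2 measured in group 1, 2 of 2 in group 2, 2 of 3 in group 3, 3 of 3 in group 4, 2 of 3 in group 5, 1 of 2 in group 6, 0 of 2 in group 7, 1 of 2 in group 8, 2 of 4 in group 9 and 0 of 10 in groups 10 to 13. In probe sets, groups 10 to 13 had 0 of 12 above on all arrays and groups 2 to 6 had 16 of 24, ranges that were picked after the values were seen. A gene with more probe sets has more chances to be counted. Intensity depends on the probes as well as on the transcript, so the levels of different probe sets are not ranked against each other here. A probe set below the threshold may belong to a transcript that is present but poorly detected.

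**Figure D1:**
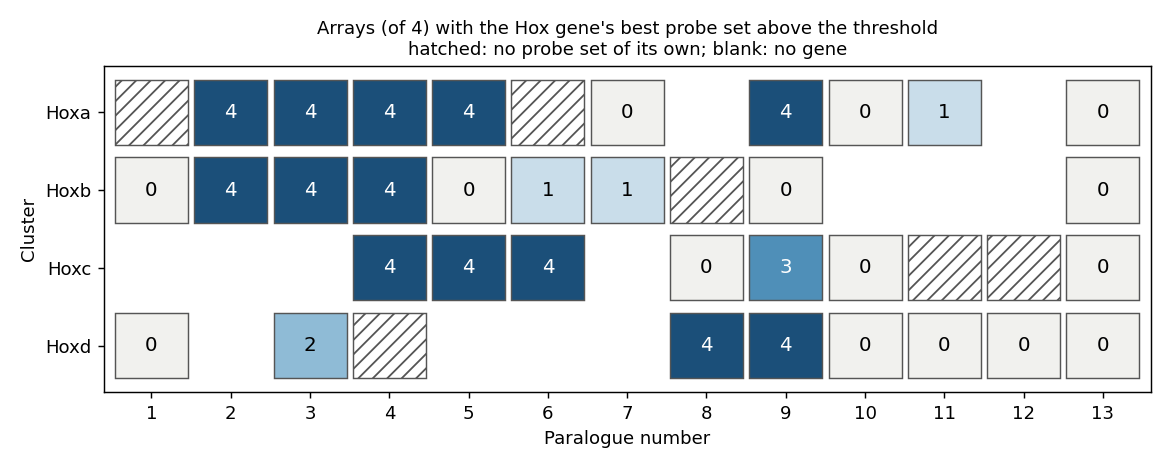
Map of the Hox genes by cluster (rows) and paralogue number (columns), with the number of arrays, out of 4, on which the gene's best probe set lay above the threshold of 469. The 13 genes marked 4 lie in paralogue groups 2 to 6, 8 and 9, and no gene of groups 10 to 13 is marked above 1.

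The start regions of 5 members are shown as examples, with a contrast in cluster D only. Hoxa2 and Hoxa5 are members of cluster A that lay above the threshold on all arrays, and Hoxd8, Hoxd9 and Hoxd10 span the place in cluster D where the above-threshold genes end. Each sequence holds the 250 bases before the RefSeq transcript start, in assembly GRCm38.p6, written 5′ to 3′ along the gene. Capitals mark matches on either strand to the CCAAT box and to TGATNNAT, a pattern that dimers of Hox proteins and their Pbx partners are known to bind. A search for the TATA box, TATAAA, found no match in these 5 windows.
Hoxa2, chr6:52164832-52165081, minus strand: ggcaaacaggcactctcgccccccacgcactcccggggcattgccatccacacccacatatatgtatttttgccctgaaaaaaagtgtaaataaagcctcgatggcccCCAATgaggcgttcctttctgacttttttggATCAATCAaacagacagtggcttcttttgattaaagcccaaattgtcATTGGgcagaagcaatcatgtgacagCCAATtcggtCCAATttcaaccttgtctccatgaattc
Hoxa5, chr6:52204588-52204837, minus strand: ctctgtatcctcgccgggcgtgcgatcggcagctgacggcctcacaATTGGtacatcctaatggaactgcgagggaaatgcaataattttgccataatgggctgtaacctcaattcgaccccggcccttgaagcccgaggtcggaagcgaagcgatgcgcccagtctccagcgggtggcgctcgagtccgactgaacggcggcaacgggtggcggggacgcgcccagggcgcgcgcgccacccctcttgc
Hoxd8, chr2:74704365-74704614, plus strand: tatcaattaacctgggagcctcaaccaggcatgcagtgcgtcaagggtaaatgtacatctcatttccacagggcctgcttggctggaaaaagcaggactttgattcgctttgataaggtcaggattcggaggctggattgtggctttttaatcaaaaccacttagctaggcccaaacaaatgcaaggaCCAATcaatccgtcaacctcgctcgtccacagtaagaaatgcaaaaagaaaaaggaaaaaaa
Hoxd9, chr2:74697513-74697762, plus strand: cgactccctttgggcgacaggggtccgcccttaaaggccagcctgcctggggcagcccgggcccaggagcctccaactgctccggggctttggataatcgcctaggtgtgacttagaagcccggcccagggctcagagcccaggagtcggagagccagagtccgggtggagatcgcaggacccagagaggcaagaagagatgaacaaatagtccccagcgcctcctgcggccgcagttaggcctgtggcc
Hoxd10, chr2:74691641-74691890, plus strand: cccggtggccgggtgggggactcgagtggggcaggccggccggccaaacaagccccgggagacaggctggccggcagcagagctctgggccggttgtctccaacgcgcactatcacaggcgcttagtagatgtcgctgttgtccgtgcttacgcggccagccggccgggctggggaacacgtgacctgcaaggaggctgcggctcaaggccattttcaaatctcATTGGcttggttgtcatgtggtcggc

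Hoxa2 held 4 matches to CCAAT, beginning 142, 64, 38 and 28 bases before the start, and 1 match to TGATNNAT at 111 bases. Hoxa5 held 1 CCAAT match at 204 bases, Hoxd8 1 at 62 bases and Hoxd10 1 at 26 bases, while Hoxd9 held none. The RefSeq table had 24 start regions for 22 of the 39 Hox genes. Hoxa4, Hoxb2, Hoxb3, Hoxc5 and Hoxc6 were not matched. In windows of the same length, CCAAT occurred in 14 of the 24 Hox windows (58.3%) against 33.8% of all 32851 start regions, TGATNNAT in 4 (16.7%) against 7.68%, and TATAAA in 4 (16.7%) against 12.4%. In the 8 windows of genes above the threshold on all arrays CCAAT occurred in 3 (37.5%), TGATNNAT in 1 (12.5%) and TATAAA in 0. In the 11 windows of genes above it on no array they occurred in 7 (63.6%), 2 (18.2%) and 2 (18.2%). In the 3 windows of genes with no probe set of their own they occurred in 3, 1 and 2. The Hox windows had a median of 12.5 CpG dinucleotides, against 6 over all start regions. The median was 10.5 CpG in the 8 windows of genes above the threshold on all arrays and 20 in the 11 windows of genes below it on all arrays, with ranges of 3 to 28 and 2 to 35 that overlap. Of the printed windows, Hoxd9 had 13 CpG and Hoxd10 had 20. These matches describe letters in the reference genome and were not set against binding data.

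Paralogue groups 1 to 3, which are known from the hindbrain and the pharyngeal arches, had 6 of 11 probe sets above the threshold on all arrays (54.5%, near the 51.2% of all probe sets). Hoxa2, which sets the identity of the second pharyngeal arch, gave intensities of 764 and 694 on the synaptic arrays and 606 and 635 on the non-synaptic arrays, in the order of replicate numbers 1 and 2. Its lowest value was the nearest to the threshold among the 20 probe sets. Hoxb2, also known from the hindbrain, gave 1352 and 1746 on the synaptic and 1502 and 1586 on the non-synaptic arrays. The synaptic values of Hoxb2 enclosed the non-synaptic ones, whereas both synaptic values of Hoxa2 were above both others.

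Hoxa3, known for its part in the thymus, parathyroid and neck skeleton, had 4 probe sets that did not give the same picture. The probe set 1427433_s_at gave 1109 and 1546 on the synaptic and 1288 and 1896 on the non-synaptic arrays. On 1452421_at the values were 678 and 1132 against 1329 and 653, and the regions overlapped on both. Of the remaining 2, 1431392_at was above the threshold on 3 arrays (374 to 650) and 1429398_at on none (156 to 267). Hoxb3 had both probe sets above on all arrays: 1427605_at at 1494 and 995 against 1302 and 782, and 1456229_at at 1203 and 1029 against 1014 and 1282. On 1427605_at the higher value in each region was that of replicate number 1. Hoxd3 was just outside, at 528 and 273 on the synaptic and 471 and 425 on the non-synaptic arrays. Hoxb1, a hindbrain gene, ranged from 249 to 336 and Hoxd1 from 64.1 to 383, and neither reached the threshold on any array.

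The central groups 4 to 8, known from the neck and chest levels, had 12 of 20 probe sets (60%) and 7 of 12 genes above on all arrays, a share of probe sets that also lay near the background of 51.2%. All 3 measured genes of paralogue group 4 were among them. Hoxa4 (1427354_at) gave 2331 and 2579 on the synaptic and 2110 and 1931 on the non-synaptic arrays, with the synaptic values on top. Its other probe set, 1420226_x_at, was below the threshold on all arrays, at 359 and 314 against 448 and 264, with the regions overlapping. Hoxb4, which is also known from blood stem cells, gave 1726 and 1116 against 1381 and 1455 on 1460379_at. Its other probe set gave 1028 and 1163 against 1087 and 1131, so the regions overlapped on both. Hoxc4 gave 3537 and 3145 against 3047 and 2431, again with both synaptic arrays above both others. Hoxd4 has no probe set of its own here.

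Hoxa5, which is needed for the airways and, with Hoxc5, for the phrenic motor neurons, lay well above the threshold on both of its probe sets. On 1448926_at it gave 4247 and 4352 on the synaptic and 5358 and 4848 on the non-synaptic arrays. On 1443803_x_at it gave 6410 and 5519 against 7061 and 5125, where the non-synaptic values enclosed the synaptic ones. The ending x in this array's naming marks probes that can also bind other transcripts, so those values may include other transcripts. Hoxc5 (1439885_at) gave 2891 and 2453 against 3065 and 2339, and its probe set 1456301_at gave 1364 and 1526 against 1531 and 1150. A further probe set of Hoxc5, above the threshold on 2 arrays, gave 394 and 1108 against 364 and 880, so that both arrays of replicate number 2 were high. Hoxb5, the other member of this paralogue group, ranged from 102 to 385 and was above the threshold on no array.

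Hoxc6, known from the forelimb level of the spinal cord, was above on 2 of its 3 probe sets. On 1427361_at it gave 4032 and 3530 on the synaptic and 4396 and 2892 on the non-synaptic arrays. On 1427362_x_at the values were 4567 and 3909 against 5255 and 2907, in the same order of arrays. The wider spread lay within the non-synaptic region on both. The third, 1427454_at, was above the threshold on 1 array and ranged from 80.6 to 742. Hoxb6 was above the threshold on 1 array, with a range of 297 to 550, and so was Hoxb7, at 263 to 582. Hoxa7 lay on all 4 arrays at or below 159, the 20th percentile and the floor used for the fit.

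Within cluster D the genes above the threshold were Hoxd8 and its neighbour Hoxd9. Hoxd8 gave 2241 and 2936 on the synaptic and 2252 and 3199 on the non-synaptic arrays on 1431099_at, with the arrays of replicate number 2 high in both regions. Its other probe set, 1433638_s_at, gave 965 and 2092 against 2215 and 2202, with replicate 1 of the synaptic region low. Hoxd9 gave 1684 and 1120 against 1735 and 1099, where the arrays of replicate number 1 were high in both regions. Hoxc8, the only other measured gene of paralogue group 8, ranged from 85.8 to 375 and was not above on any array.

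Group 9 was mixed. Hoxa9, known for its part in blood progenitors, gave 846 and 1004 on the synaptic and 1138 and 1327 on the non-synaptic arrays on 1421579_at, with both synaptic values below both others. Its other probe set ranged from 32.0 to 177 and was above on none. Hoxc9, which marks the chest level of the spinal cord, gave 614 and 655 against 411 and 979 and thus missed the threshold on 1 array. It was, with a probe set of Hoxa3 (1431392_at, lowest value 374), the nearest outside the rule. Hoxb9 ranged from 39.6 to 305.

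Groups 10 to 13, known from the lumbar and tail levels, the limbs and the urogenital tract, held 12 probe sets and 48 array values. Of these values 1 exceeded the threshold, a reading of 546 for Hoxa11 on replicate 2 of the synaptic region, whose other values lay between 336 and 371. Of all probe sets that are not controls, 57.9% to 61.9% exceeded the threshold on each array. Hoxd10, which is known from the lumbar spinal cord, ranged from 26.9 to 46.9, next to Hoxd9 in the genome. Hoxd12 ranged from 45.1 to 63.0, Hoxb13, known from the prostate and the tail, from 16.6 to 37.7, and Hoxc13, known from hair, from 59.7 to 98.2. Hoxa10, known from the uterus, ranged from 230 to 421 on the brighter of its 2 probe sets, between the floor and the threshold. Hoxa10's other probe set ranged from 67.1 to 221. Hoxc10 ranged from 191 to 369, Hoxd11 from 16.9 to 145 and Hoxa13 from 235 to 361, and Hoxd13, known from the digits, from 192 to 448 on one probe set and from 25.8 to 41.3 on the other. In all, 7 Hox genes had a probe set at or below the floor on all 4 arrays: Hoxa7, Hoxb13, Hoxc13, Hoxd10, Hoxd11, Hoxd12 and Hoxd13. Over all probe sets, 18.7% to 21.3% lay at or below the floor on each single array. The share of all probe sets that did so on all 4 arrays was not counted.

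**Figure D2:**
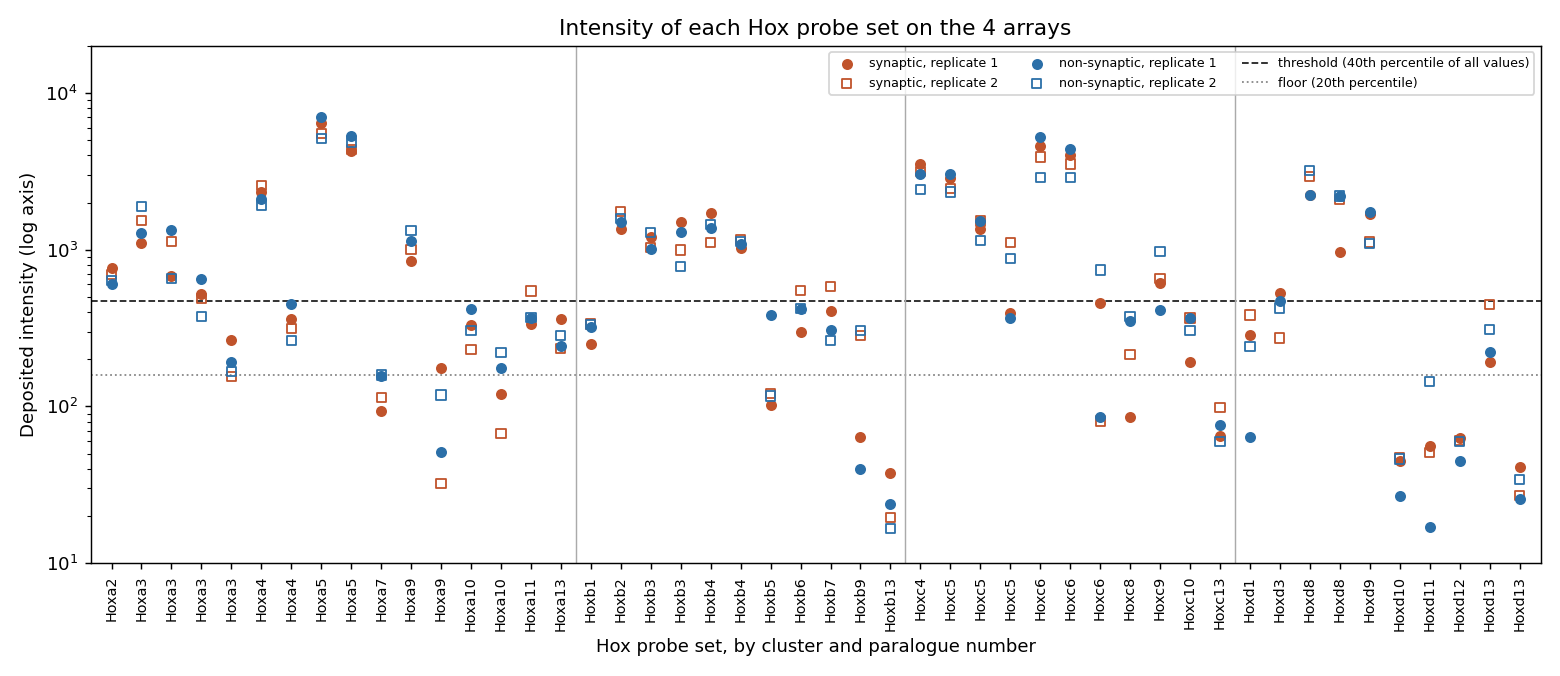
Deposited intensity (log axis) of the 48 Hox probe sets on the 4 arrays, ordered by cluster and paralogue number, with vertical lines between clusters; filled symbols are replicate number 1, open symbols replicate number 2. The dashed line is the threshold of 469 and the dotted line the floor of 159; the probe sets of Hoxd8 and Hoxd9 lie above the threshold on all arrays and that of Hoxd10 lies below the floor.

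By cluster, 7 of 16 probe sets were above on all arrays in A, 5 of 11 in B, 5 of 11 in C and 3 of 10 in D. The posterior groups 9 to 13 together had 2 of 17 (11.8%, against 51.2% of all probe sets), those of Hoxa9 and Hoxd9. Of the 11 genes with several probe sets, 4 had all of them above on all arrays (Hoxa5, Hoxb3, Hoxb4 and Hoxd8), 5 had some (Hoxa3, Hoxa4, Hoxa9, Hoxc5 and Hoxc6) and 2 had none (Hoxa10 and Hoxd13). For the 22 genes with a single probe set the count rests on that probe set alone.

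The comparison of the regions asked whether Hox transcripts differ between the synaptic and the non-synaptic part of the muscle. No Hox probe set passed. Log2 of the intensity, with values below the floor raised to it, was compared by limma over the 26480 probe sets with a mean at or above the threshold, of which 23 are Hox. At an adjusted p under 0.05, limma called 0 of the 23 higher and 0 lower, and 0 had an unadjusted p under 0.05. Over all probe sets the shares called were 0.00378% higher and 0.00755% lower, and 0.986% had an unadjusted p under 0.05. At these shares under 1 call would be met among 23 probe sets, so the count of 0 lay near the background. The median log2 difference, synaptic minus non-synaptic, was -0.008 over the 23 Hox probe sets and -0.011 over all probe sets tested. With 2 arrays a side, permuting the labels exactly gives 1 in 3 as its smallest 2-sided p, which is why limma alone was run.

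Among the 20 probe sets above on all arrays, 7 had a positive and 13 a negative difference, and 18 had a size under 0.3 on the log2 scale. The most negative was that of Hoxd8 on 1433638_s_at, at -0.64 ± 0.41 (SE of the limma fit, 2 arrays per region), with a 95% interval from -1.68 to 0.41. The other Hoxd8 probe set gave -0.07 ± 0.28, and the first rests on the low value of 1 synaptic array. Hoxa9 differed by -0.42 ± 0.27 (interval -1.11 to 0.27), and Hoxa5 by -0.25 ± 0.19 (-0.73 to 0.24) on 1448926_at and by -0.02 ± 0.24 (-0.62 to 0.59) on 1443803_x_at. The most positive differences were those of Hoxc4 at 0.29 ± 0.23 (-0.29 to 0.87), Hoxa4 (1427354_at) at 0.28 ± 0.22 (-0.27 to 0.83), Hoxb3 on 1427605_at at 0.27 ± 0.38 (-0.70 to 1.25) and Hoxa2 at 0.23 ± 0.30 (-0.54 to 0.9996). Averaged over the 2 probe sets of each gene, the difference was 0.12 for Hoxa4, -0.17 for Hoxa9 and -0.35 for Hoxd8. The other Hoxb3 probe set gave -0.04 ± 0.28. Hoxa3 differed by -0.26 ± 0.32 on 1427433_s_at and by -0.09 ± 0.47 on 1452421_at, and Hoxc6 by 0.11 ± 0.33 on 1427362_x_at and by 0.08 ± 0.27 on 1427361_at. The Hoxb4 probe sets gave -0.03 ± 0.30 and -0.02 ± 0.25. For Hoxb2, Hoxc5 (1439885_at) and Hoxd9 the difference was -0.01 each, with standard errors of 0.25, 0.25 and 0.36. The limma adjusted p was 0.9999 for each of these, and the smallest unadjusted p, that of Hoxd8, was 0.179.

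The intervals come from the fit without the replicate number and are not adjusted for the number of probe sets tested. For each probe set they give a range of differences, not the size of difference that would have been called. The Schwann cell marker Pmp22, for example, differed by 1.16 ± 0.15 and was not called (limma adjusted p = 0.492). Of the 23 tested probe sets 15 had an interval inside -1 to 1, that is, within a 2-fold change in either direction, and all 23 intervals held 0. The widest was that of the dim Hoxc5 probe set 1450832_at, from -1.52 to 1.97. A p that misses the threshold does not show that the regions were alike, and for Hoxc9, at -0.001 ± 0.50, a change of up to 1.26 in either direction lay within the interval.

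**Figure D3:**
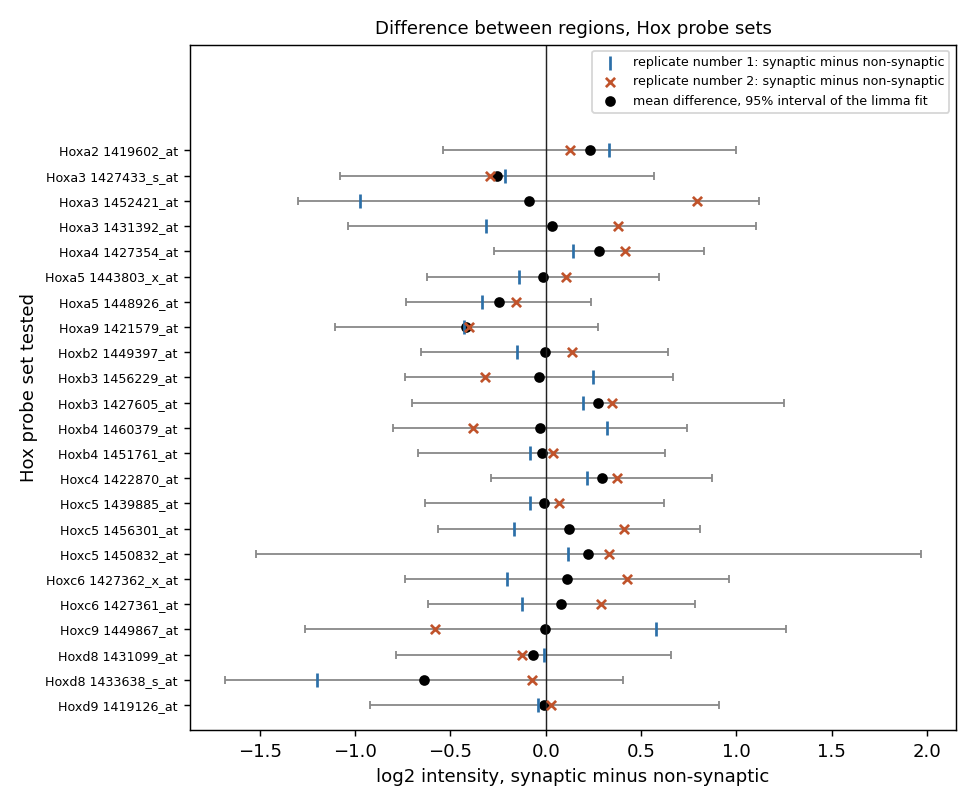
Log2 intensity, synaptic minus non-synaptic, of the 23 Hox probe sets tested; black points are mean differences with 95% intervals of the limma fit, and the coloured marks are the differences between the arrays of replicate number 1 and of replicate number 2. All intervals cross 0, and the largest difference in size, -0.64 for Hoxd8 on 1433638_s_at, came from replicate number 1 (-1.20) more than from number 2 (-0.07).

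For 5 of the 48 Hox probe sets (10.4%) the lower synaptic value exceeded the higher non-synaptic one, against 9.77% of all probe sets, and for 5 (10.4%) the order was the opposite, against 9.37%. These shares lay near the background. Those above were Hoxa2, Hoxa4 (1427354_at), Hoxc4, Hoxb7 and Hoxd1. Those below were Hoxa5 (1448926_at), Hoxa9 (1421579_at), Hoxd8 (1433638_s_at), Hoxa10 (1431475_a_at) and Hoxc8. Both synaptic values of that Hoxa10 probe set, 120 and 67.1, lay below the floor. The brighter Hoxa10 probe set overlapped, at 331 and 230 against 421 and 305. Hoxb7, Hoxd1, Hoxa10 and Hoxc8 were too dim to be tested. Hoxb7 read 405 and 582 against 309 and 263, and Hoxc8 85.8 and 214 against 349 and 375.

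In bulk tissue fewer cells of a type and less RNA per cell cannot be told apart, and which cells carried the Hox signal was not measured. All 7 myofibre markers and all 7 fibroblast markers were above the threshold on all 4 arrays, against 51.2% of all probe sets. So were all 5 endothelial, all 3 satellite cell, all 4 mesothelial and all 4 macrophage markers. Here and in the lists below a gene was read from its brightest probe set. That raises its chance of being counted, so the share of all probe sets is not a like background. The summed intensity of the fibroblast markers was 387647 and 442444 on the synaptic and 372697 and 457243 on the non-synaptic arrays, with the regions overlapping. Schwann cell markers, 5 of 8 with a probe set, summed to 93222 and 103012 against 26700 and 27677. Of these, Mbp was called higher by limma (adjusted p = 0.0326). Fat cell markers, 4 of 5 with a probe set, summed to 488 and 1205 against 12009 and 10498. Adipoq was called lower (limma adjusted p = 0.0326), at 186 and 189 on the synaptic and 9045 and 7243 on the non-synaptic arrays. Both synaptic values lay below the threshold, so this probe set was tested only because of its non-synaptic values. Smooth muscle markers, with 3 of 4 above on all arrays and Cnn1 above on none, summed to 38109 and 40585 against 42130 and 48198. Among these Myh11 differed by -0.77 ± 0.30 (limma unadjusted p = 0.0476, adjusted p = 0.9999). These 3 cell types were picked after their sums, which did not overlap between the regions, were seen. By limma 0 smooth muscle markers were called, and Acta2, the brightest of them, overlapped at 30666 and 32709 against 32048 and 37008. Of 4 axonal markers, Nefl, Nefm and Nefh were above the threshold on no array and Chat on 1, at 651 on replicate 1 of the non-synaptic region. The part of these cells in the Hox values was not tested.

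Hox proteins bind DNA together with the TALE homeodomain proteins of the Pbx, Meis and Pknox families. Of 9 such partner genes 8 had a probe set, and 7 were above the threshold on all 4 arrays, against 51.2% of all probe sets. Pbx4, named after its values were seen, was above on none. By limma 0 of the 7 tested were higher and 0 lower, and the median difference was 0.05. Meis2 gave 4353 and 4670 on the synaptic and 4377 and 4737 on the non-synaptic arrays, a difference of -0.01 ± 0.19. Pknox2 differed by 0.24 ± 0.24, Pknox1 by 0.24 ± 0.23, Pbx2 by 0.24 ± 0.26 and Meis1 by -0.25 ± 0.25, none past the test. The other probe sets of Pknox1 went in the opposite direction, at -0.33 and -0.36. Pknox2 read 9456 and 7069 against 7816 and 6090, with the gap between replicate numbers wider than that between regions.

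The trithorax and polycomb groups are chromatin regulators that hold Hox genes in an active or a silent state. All 10 trithorax genes, each read from its brightest probe set, were above the threshold on all arrays, against 51.2% of all probe sets. By limma 0 of 10 were called higher or lower, with a median difference of 0.01. Kmt2a, the methyltransferase best known for keeping Hox genes on, differed by -0.24 ± 0.20 and Men1 by -0.12 ± 0.20. Ash2l differed by -0.10 ± 0.18, Dpy30 by 0.08 ± 0.17 and the demethylase Kdm6b by -0.04 ± 0.23. The other probe sets of Men1 gave 0.61 and, too dim to be tested, -0.24, and those of Kdm6b gave 0.28 and 0.16. Of 19 polycomb genes 18 had a probe set and 16 were above on all arrays, against the same share of all probe sets. By limma 0 of the 17 tested passed in either direction, with a median of 0.10.

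Pcgf2, a ring finger subunit of polycomb complexes whose loss is known to shift the identity of vertebrae in mice, had the largest difference of its list. Its synaptic values of 940 and 814 did not overlap the non-synaptic values of 271 and 450. The difference was 1.32 ± 0.40, and it did not pass over all probe sets (limma adjusted p = 0.9999). Both non-synaptic values lay below the threshold, so this probe set was tested only because of its synaptic values. Its unadjusted p of 0.0205 was the only one under 0.05 among 62 list genes tested, against 0.986% of all probe sets tested. The second probe set of Pcgf2 gave 680 and 316 against 687 and 292, a difference of 0.05. Phc1 differed by 0.48 ± 0.32, Cbx6 by 0.42 ± 0.34, Eed by -0.25 ± 0.22, Phc2 by 0.15 ± 0.23 and Bmi1 by -0.08 ± 0.21, none past the test.

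Retinoic acid and the Cdx factors turn Hox genes on in the embryo. Of 16 genes of this kind 15 had a probe set, 7 were above on all arrays and 6 on none, against 51.2% of all probe sets above on all. Limma called 0 of the 8 tested higher and 0 lower. Cdx1, Cdx2 and Cdx4 were among the 6, as was seen afterwards. The receptor Rarb differed by -0.41 ± 0.23, and Gdf11, which sets trunk and tail Hox boundaries, by 0.51 ± 0.34. Rara differed by 0.45 ± 0.45, Rxrg by -0.15 ± 0.28, Rxrb by 0.11 ± 0.36 and Rxra by -0.04 ± 0.37. Rara read 448 and 904 against 466 and 468, so its place in the test and its difference rest on replicate 2 of the synaptic region. The enzyme Aldh1a2, which makes retinoic acid and was likewise named after its values were seen, gave 2049 and 2662 on the synaptic and 2019 and 2337 on the non-synaptic arrays.

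Of 30 other homeobox or T-box factors of muscle and body position, 28 had a probe set. Of these 18 were above on all arrays, against 51.2% of all probe sets. Limma called 0 of the 20 tested higher and 0 lower, with a median of -0.05. Meox1, a factor of the somites, differed by 0.49 ± 0.31, Tbx18 by -0.57 ± 0.50 and Pax3 by -0.30 ± 0.30. On the other probe sets of Pax3 the difference was 0.14 and 0.42. Msx1 differed by -0.23 ± 0.24, Prrx1 by 0.21 ± 0.23 and Tbx15 by -0.06 ± 0.16. Tbx18 read 288 and 662 against 626 and 668, so its difference rests on the low value of replicate 1 of the synaptic region. Factors of limb identity were named after their values were seen: both probe sets of the forelimb factor Tbx5 were at or below the floor on all arrays, with a highest value of 149. The hindlimb factor Pitx1 ranged from 254 to 416 and was above the threshold on none, and Tbx4, also of the hindlimb, was above it on 1 array, at 517 on replicate 2 of the synaptic region. Lbx1, a factor of migrating muscle precursors, was above it on all arrays, at 6032 and 3310 on the synaptic and 4887 and 2663 on the non-synaptic arrays.

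**Figure D4:**
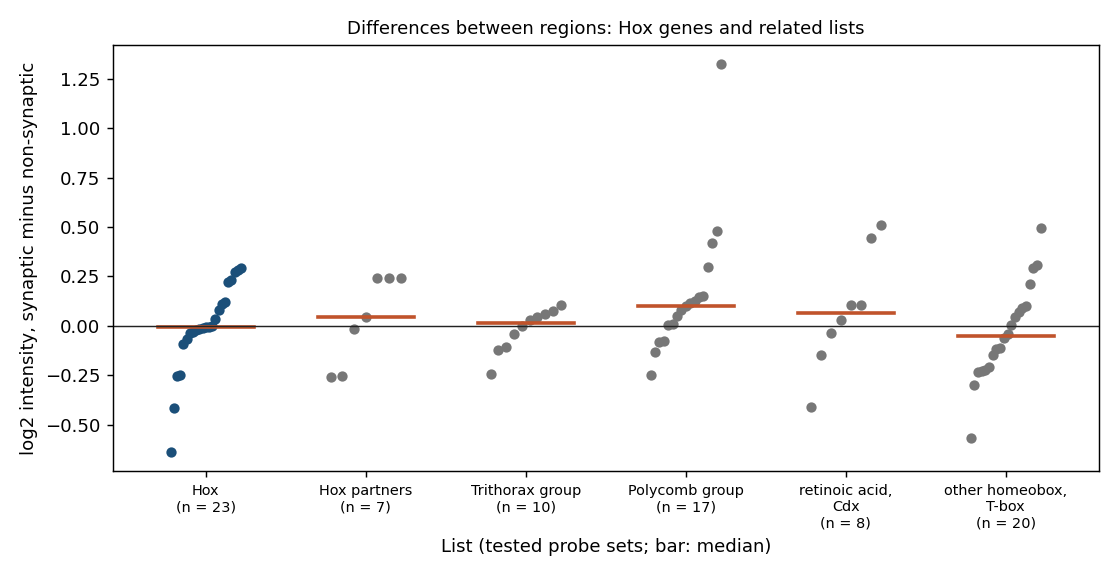
Log2 intensity, synaptic minus non-synaptic, of the tested probe sets of the Hox genes and of 1 probe set per gene of 5 related lists, with the median as a bar. Medians lie between -0.05 and 0.10, and the point at 1.32 is Pcgf2.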

How the data were processed

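The authors deposited 1 linear intensity per probe set and array; how they were summarised and scaled is not given in the sources used here, and the deposited scaling was kept. A shared change of most transcripts would not be seen under it. After a floor at the 20th percentile (159), intensities were put on the log2 scale. Probe sets with a mean below the 40th percentile (469, or 8.87 on the log2 scale) and 64 control probe sets were left out of the fit, leaving 26480. Regions were compared in R 4.3.3 with limma 3.58.1 (lmFit, eBayes with intensity trend, 2-sided, Benjamini-Hochberg over all probe sets tested, threshold 0.05), with 2 residual and 3.16 prior degrees of freedom. The number of arrays limits the precision, and since separate animals are not stated, p-values reflect array-to-array spread that may be technical only. The number ending each title was read as a replicate number.

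Members took the platform annotation's symbol, which can be old; 8 probe sets with an antisense symbol or several Hox genes were left out. Genes of the lists were read from 1 probe set, that of highest floored mean (the first in order where all lay at the floor), and updated through RefSeq GRCm38.p6, which matched 34754 of 34958 probe sets with 1 gene. Every Hox gene above the threshold on all arrays was described by its values on each array, the others mostly by range, and of each list up to 4 genes with the smallest unadjusted p and 2 with the highest mean were named. Other probe sets of a list gene could differ in sign from the one read. Members and lists were chosen with earlier results of these data known. The code of the fit was checked on simulated arrays with known changes, drawn with independent noise and no replicate effect. That check does not measure the power for the Hox differences described here. Sequences came from a RefSeq table of start regions; the coordinates are not those of the array. Alternatives were other thresholds, scalings, filters, floors and priors, a replicate block and leaving out each array.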

Additional observations from a re-analysis of the deposited data

How the results depend on the processing

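No Hox probe set and no list member was called under any setting tried, and of the 13 named Hox genes the lowest limma adjusted p in any setting was 0.843. Where tested, the sign of the difference held for Hoxa2, Hoxa4, Hoxa9 and Hoxc4 and changed in some settings for the other 9. Hoxa2 and Hoxa9 were not tested when filtering at the 60th percentile. On the probe sets read for these 4 genes the regions did not overlap, so leaving out 1 array could not change the sign. The kept sign is therefore no further support for a difference. The count of Hox probe sets above the threshold on all arrays became 33 (23 genes) at the 20th percentile and 10 (7 genes) at the 60th, against 20 (13 genes), and was 18 to 28 (12 to 18 genes) under the other settings. For all probe sets together, the limma calls (1 higher, 2 lower) changed as follows. Higher calls numbered 6 after median centring or at an adjusted p under 0.10, 3 when filtering at the 60th percentile, and 0 unfiltered or without an intensity trend. Lower calls numbered 1 when the floor was the 40th percentile, and 0 unfiltered or without an intensity trend. Leaving out each array gave 0 to 6 higher and 0 to 5 lower calls: 0 and 0 when either non-synaptic array was dropped, 4 and 3 when synaptic replicate 1 was, and 6 and 5 when synaptic replicate 2 was. The lone array left in a region is then assumed to vary like those of the other region. The median Hox difference, -0.008 with all 4 arrays, then ranged from -0.085 to 0.082. The cause was not tested.

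With the replicate number as a block, limma called 56 probe sets higher and 18 lower, and still 0 Hox probe sets. Over the tested probe sets the deviations of same-numbered arrays from their region means correlated at 0.634, a description from these 4 arrays, while the labels do not say what the number stands for.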

Other observations

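Of the 8 probe sets left out for an antisense symbol or several Hox genes, described after their values were seen, 1 was above the threshold on all arrays: a probe set of Hoxd3os1, an RNA transcribed opposite Hoxd3, at 1289 and 954 on the synaptic and 1240 and 1339 on the non-synaptic arrays. Its difference was -0.22 ± 0.28. The 2 probe sets of Hoxa11os, transcribed opposite Hoxa11, lay at 209 and 289 against 96.2 and 27.6, and at 110 and 12.8 against 10.4 and 9.20, all below the threshold. A probe set shared by Hoxd4 and Hoxd3 read 753 and 748 on the arrays of replicate number 1 and 36.6 and 257 on those of number 2.

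Both arrays of replicate number 1 lay above both of number 2 for 11 of the 48 Hox probe sets (22.9%) and below both for 11 (22.9%), against 20.7% and 25.3% of all probe sets. Hoxd9 and Hoxc6 were among the former, and Hoxd8 (1431099_at) and Hoxb2 among the latter.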
